A study of Homo sapiens with 6 samples.

Results

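Interferon-stimulated genes and sensors of viral RNA were followed in 6 human neuroblastoma cell lines. The set holds 43 genes, grouped by role into sensors, STAT and IRF transcription factors, and effectors, and a gene was counted wherever its symbol appeared in the gene name of a locus. Of the 43, 37 had a locus, on 36 loci of the 16223 with a gene name, because IFITM1 and IFITM2 share one. OAS2, OASL, MX1, MX2, TRIM22 and XAF1 had no locus under their symbol and were not analysed here. The lowest sum over the 6 lines that any locus showed was 1 FPKM (fragments per kilobase of transcript, scaled to the fragments of the library).

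Ribosome-depleted RNA was sequenced from MYCN-amplified lines (SK-N-DZ, CHP134, BE(2)-C and Kelly) and MYCN-non-amplified lines (SY5Y and SK-N-AS), with 1 library per line, to find transcripts that differ between the 2 groups. All 6 are established lines grown in fetal calf serum, BE(2)-C and SY5Y being clonal sublines of older lines, and the labels name no interferon, virus or drug. RPMI was the medium of Kelly and CHP134 and DMEM that of the other 4 lines, so that it was not balanced between the groups. The cell lines are the replicates, and every p-value below measures the spread between lines. MYCN RNA was at 184 to 774 FPKM in the amplified lines, 0.921 FPKM in SY5Y and 0.208 FPKM in SK-N-AS.

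Sequencing depth is unknown, and no value carries a counting error. Sums over the table went from 777111 to 1305116 FPKM, and median FPKM of tested loci from 6.78 in SK-N-DZ to 8.64 in SK-N-AS. The loci RNU4-1 and RNU4-2 alone held from 22.6% of the sum in CHP134 to 54.6% in SK-N-AS. Markers of sympathetic neuroblasts were present in every line, among them HAND2 at 65.8 to 183 FPKM. SK-N-AS stood apart by the leukocyte phosphatase gene PTPRC, at 108 FPKM against at most 0.0658 FPKM in the other lines. None of the other 4 leukocyte markers (CD3E, CD79A, CD14, ITGAM) and none of the 4 endothelial markers had a locus. The 4 mesenchymal-state markers PRRX1, FOSL1, YAP1 and VIM were all highest in SK-N-AS. Their summed level was 676 FPKM there, 389 FPKM in SY5Y and 7.93 to 117 FPKM in the MYCN-amplified lines. VIM made up most of each sum, contributing 612 FPKM for SK-N-AS, 386 for SY5Y and 7.40 to 114 for the MYCN-amplified lines. Within SY5Y, YAP1 reached 3.53 FPKM but FOSL1 only 0.228, and PRRX1 (0.00327 FPKM) was lower than in any other line. The part of these differences in the results below was not tested.

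Interferons are cytokines that cells release when cytosolic or endosomal sensors bind viral nucleic acid. They act through receptor-bound JAK kinases on STAT factors, of which STAT2 joins IRF9 in a complex that binds the interferon-stimulated response element in the promoters of target genes. Many products of these targets are themselves sensors, signalling factors or blocks to viral entry, translation and release, and most are kept low in cells without the stimulus. Interferon-gamma acts mainly through STAT dimers, at the gamma-activated site.

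Promoter sequence was compared because the genes share this regulation. RefSeq promoters (GRCh38.p14, 250 bases before to 50 after the start site) were matched for 33 of the 43 genes, DDX58 under its present symbol RIGI. The response element, searched as GAAANNGAAA on both strands, was in a promoter of 21 of these 33 genes (63.6%), against 1195 of 27305 genes (4.38%) in the RefSeq table. The gamma-activated site, searched as TTCNNNGAA, whose complement reads the same, was in 8 of 33 (24.2%), against 9.38% of all genes. The 2 motifs may overlap, and a match is a description of the letters only. The 6 stretches shown are those of the genes with a response element that had the smallest p in the comparison of lines below. They are read 5′ to 3′ on the strand of the gene, with each match in capitals.
HERC5 (chr4:88456954-88457094, plus strand): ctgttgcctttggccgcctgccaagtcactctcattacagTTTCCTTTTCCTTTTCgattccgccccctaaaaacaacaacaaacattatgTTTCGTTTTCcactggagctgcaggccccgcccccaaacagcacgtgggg
TRIM21 (chr11:4393670-4393699, minus strand): cttgcttctgagcgGAAACTGAAAGTGAAA
IFITM1 (chr11:313960-314043, plus strand): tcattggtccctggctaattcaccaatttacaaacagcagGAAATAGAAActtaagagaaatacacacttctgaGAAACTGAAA
PARP9 (chr3:122564301-122564381, minus strand): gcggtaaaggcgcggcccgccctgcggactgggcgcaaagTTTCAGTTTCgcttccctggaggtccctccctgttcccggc
DTX3L (chr3:122564292-122564341, plus strand): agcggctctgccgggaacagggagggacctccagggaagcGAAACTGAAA
IFIT1 (chr10:89392467-89392569, plus strand): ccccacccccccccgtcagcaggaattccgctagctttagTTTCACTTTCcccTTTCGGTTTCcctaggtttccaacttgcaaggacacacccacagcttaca

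HERC5 and TRIM21 carried overlapping matches, and IFIT1 carried 2 matches 3 bases apart. PARP9 and DTX3L are divergent neighbours, and their stretches hold the same 10 bases, at 122564332 to 122564341 of chromosome 3, read on opposite strands. The match of TRIM21 lay after the start site, from position 18 to position 33. No response element of these letters was in the promoter windows of SP110, HERC6, STAT2, IRF9 or DDX58, 5 of the genes with the smallest p, and a gamma-activated site was in those of SP110 and IRF9.

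RNA of the set was highest in SK-N-AS at 32 of the 36 loci, against 24.3% of all named loci. At 12 of the 36, SK-N-AS stood more than 2 on the log2(FPKM + 0.5) scale above the highest of the other 5 lines, against 1.84% of all named loci. Among the 23 of the 36 that reached 1 FPKM in 2 lines or more, the count was 3, against 0.699% of all such named loci. These 3 (DTX3L, PARP9 and IFI16) met that minimum only with SK-N-AS counted, so that they are not free of selection by this line. The rest of the 12 reached 1 FPKM in SK-N-AS alone. No locus with a sum below 1 FPKM is listed, and without SK-N-AS all of these but BST2 would sum to less than that. The same holds for IFIT2, RSAD2 and DHX58. Counts and medians over the 36 loci thus include loci listed only through SK-N-AS. With 1 library of this line there is no test of how far it stood above the others. Among the 36, the count was 12 after quantile normalization or with median-ratio size factors, and 5 with a pseudocount of 2. Across the 36 loci, the median difference between SK-N-AS and the mean of the other 5 lines was 2.87 on this scale, while it was 0.06 over all named loci. The number of loci at 1 FPKM or more was 18 in SY5Y, 35 in SK-N-AS, 10 in CHP134, 7 in BE(2)-C, 7 in Kelly and 6 in SK-N-DZ. The 35 include loci listed only through SK-N-AS. Of all 16223 named loci, 12120 reached this level in SY5Y, 12093 in SK-N-AS, 11643 in CHP134, 11363 in BE(2)-C, 11638 in Kelly and 11425 in SK-N-DZ. A library averages over its cells, so that fewer expressing cells and less RNA per cell cannot be told apart.

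**Figure D1:**
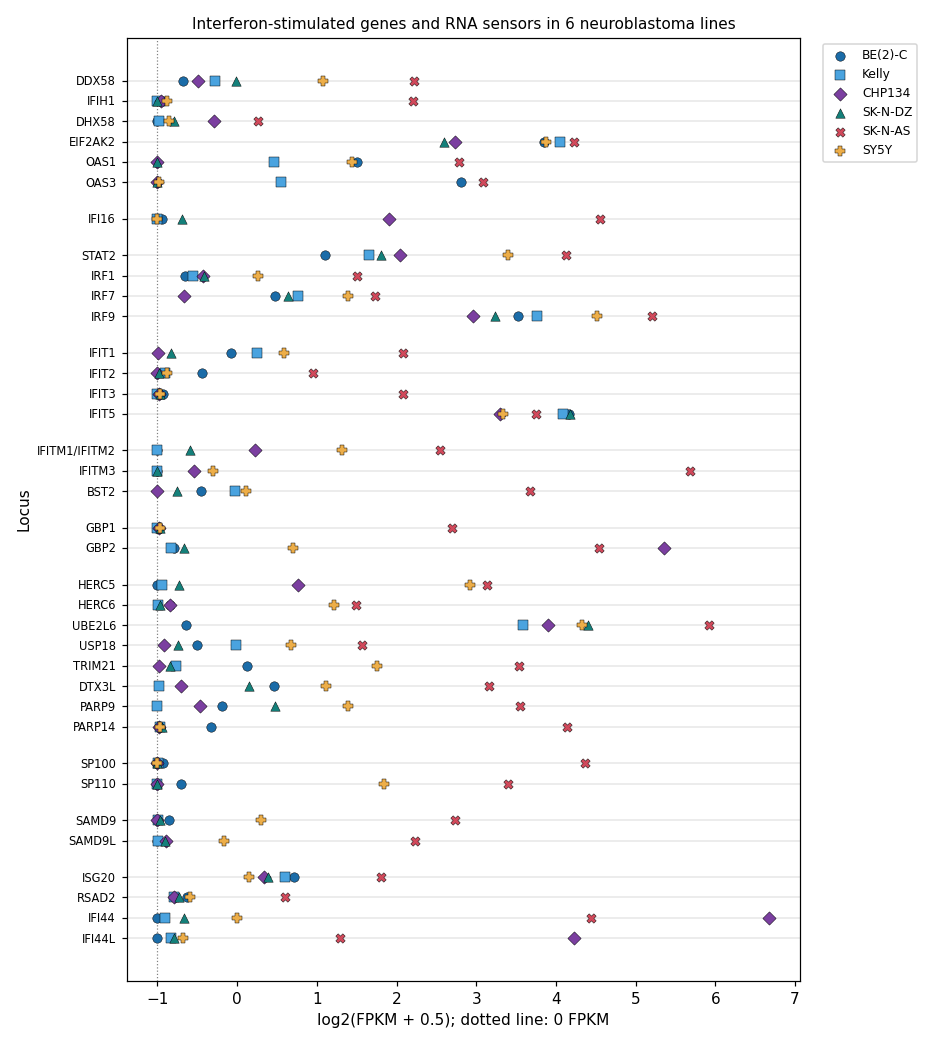
Level of each locus of the set, as log2(FPKM + 0.5) on the horizontal axis, in each of the 6 cell lines (1 library each, 1 symbol per line), in blocks by role. The SK-N-AS crosses lie to the right of all other symbols at 32 of 36 loci, and CHP134 exceeds every other line at GBP2, IFI44 and IFI44L.

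**Figure D2:**
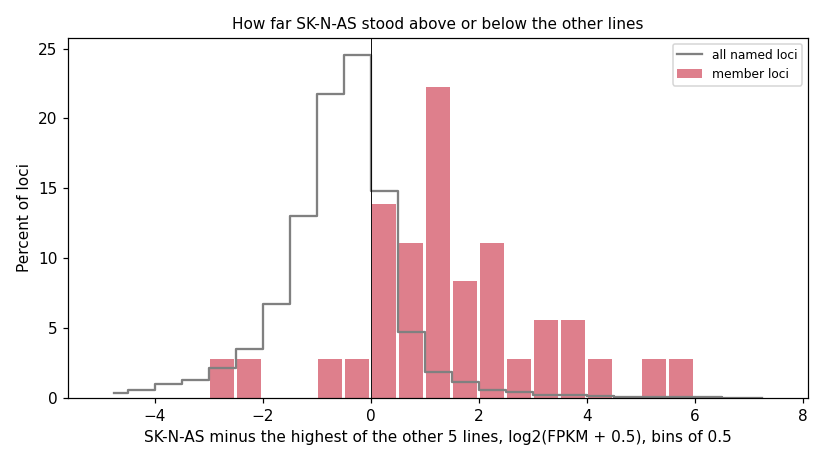
Difference between SK-N-AS and the highest of the other 5 lines in log2(FPKM + 0.5), in bins of 0.5, as percent of the 36 loci of the set (bars) and of all 16223 named loci (line). Values right of 0 are loci highest in SK-N-AS, and 12 of the 36 lie above 2.

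The MYCN-amplified lines were compared with SK-N-AS and SY5Y by limma over all 12870 named loci that reached 1 FPKM in 2 lines or more. Of the 36 loci, 23 met this minimum. None of the 23 was called lower, against 0.365% of all tested loci, and none higher, against 0.140%, where a call needs an adjusted p below 0.05 and a log2 fold change beyond 1 in size. At an unadjusted p below 0.05, 14 of the 23 were lower in the MYCN-amplified lines, against 9.46% of all tested loci, and none was higher, against 5.48%. Of the 23, 9 met the minimum only through SK-N-AS and SY5Y and had to be higher there. These 9 were DDX58, IFIT1, IFITM1 with IFITM2, HERC6, USP18, TRIM21, DTX3L, PARP9 and SP110. All 9 are among the 14, so that the minimum set their direction, and the others of the 14 were OAS1, STAT2, IRF7, IRF9 and HERC5. Of the 13 loci left out, 12 reached 1 FPKM in SK-N-AS alone. Without the minimum, 19 of 36 were lower at an unadjusted p below 0.05, against 9.38% of all named loci. HERC6 and SP110 were then called lower, against 77 of all 16223 named loci called in either direction. All 4 MYCN-amplified values lay below both others at 20 of the 36 loci, against 16.2% of all named loci.

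The count at an unadjusted p below 0.05 drew on both MYCN-non-amplified lines, and the 9 loci named above cannot be tested without either. Without SK-N-AS, 10 of the 23 loci met the minimum, and 14 did without SY5Y. Their median log2 fold change was -1.11 without SK-N-AS, against -0.07 over all loci tested then. It was -2.61 without SY5Y, against -0.09. SY5Y by itself exceeded all 4 MYCN-amplified lines at 20 of the 36 loci, against 25.5% of all named loci. The median difference of SY5Y from the mean of the MYCN-amplified lines was 0.72 on the log2 scale over the 36 loci, and 0.06 over all named loci. For SK-N-AS the same medians were 3.08 and 0.08, the first taken over loci of which some are listed only through this line. With 4 and 2 lines, 0.0667 is the smallest two-sided p that exact permutation allows.

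**Figure D3:**
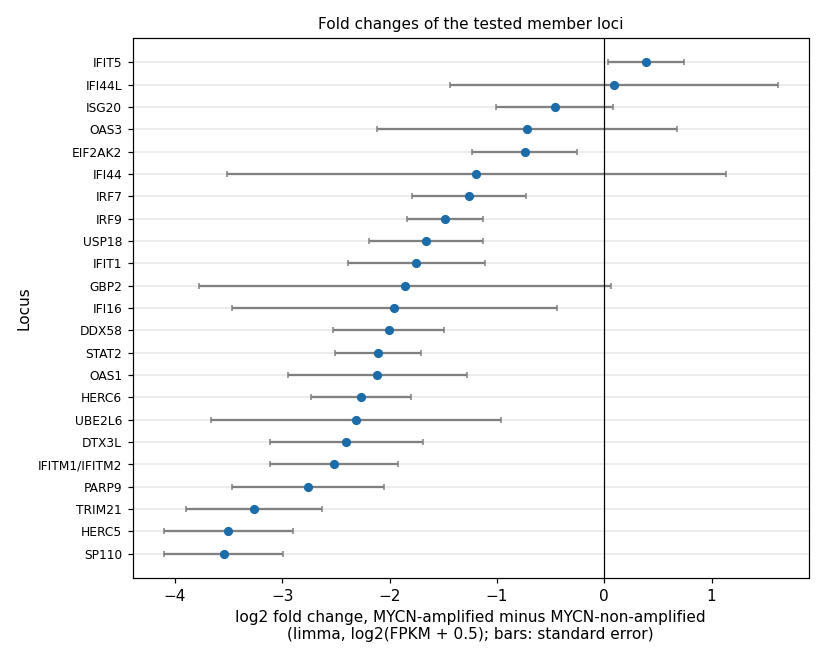
Log2 fold change of the 23 tested loci, MYCN-amplified minus MYCN-non-amplified lines (4 against 2), with the standard error from limma as bars. SP110 and HERC5 stand lowest, at -3.55 and -3.50, and IFIT5 and IFI44L are the loci with values above 0.

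**Figure D4:**
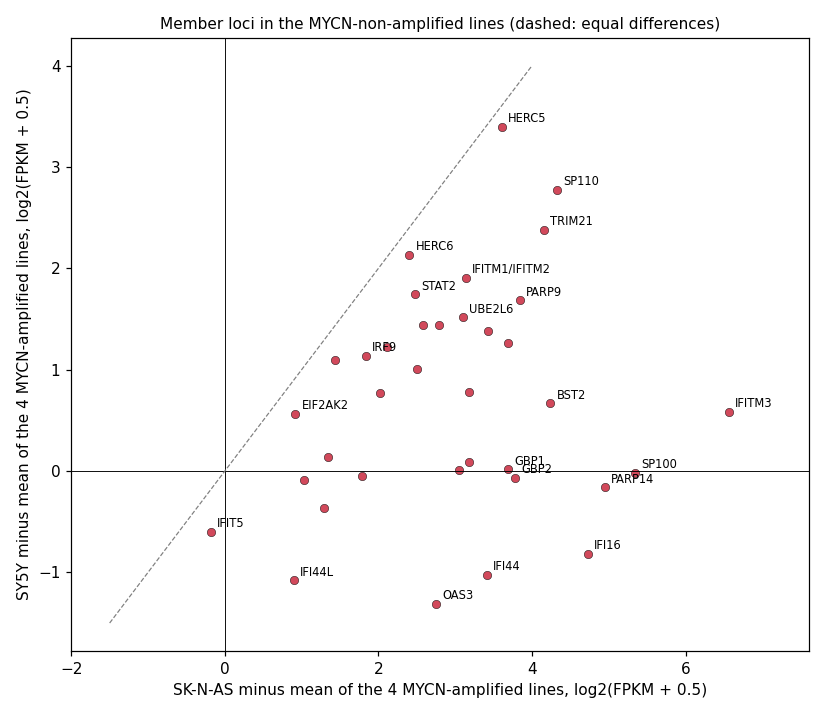
Difference of SK-N-AS (horizontal axis) and of SY5Y (vertical axis) from the mean of the 4 MYCN-amplified lines in log2(FPKM + 0.5), 1 point per locus of the set. Every point lies right of the dashed line of equal differences, HERC5 close to it, while SP100 and GBP1 are near 0 for SY5Y and IFIT5 alone is below 0 for SK-N-AS.

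Of the sensors of cytosolic RNA, DDX58 (RIG-I) was detected above 1 FPKM in both MYCN-non-amplified lines, and IFIH1 (MDA5) in SK-N-AS alone. DDX58 was at 0.324 FPKM in Kelly, 0.126 in BE(2)-C, 0.491 in SK-N-DZ, 0.213 in CHP134, 1.60 in SY5Y and 4.15 in SK-N-AS. DDX58 met the minimum for the test only through SK-N-AS and SY5Y, so that the groups could not overlap. Its log2 fold change stood at -2.01 (standard error 0.52, adjusted p = 0.167). IFIH1, which binds long double-stranded RNA, reached 4.13 FPKM in SK-N-AS and at most 0.0437 FPKM in the others. DHX58 (LGP2), the helicase of this family that lacks signalling domains, reached 0.698 FPKM in SK-N-AS and at most 0.318 FPKM elsewhere. Neither IFIH1 nor DHX58 met the minimum for the test.

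EIF2AK2, the kinase PKR that stops translation upon binding double-stranded RNA, was expressed in every line. It was at 16.0 FPKM in Kelly, 14.0 in BE(2)-C, 5.56 in SK-N-DZ, 6.18 in CHP134, 14.1 in SY5Y and 18.3 in SK-N-AS. The groups overlapped (log2 fold change -0.74, standard error 0.49, adjusted p = 0.508). OAS1 and OAS3, neighbours on chromosome 12 that make an oligoadenylate second messenger, varied within both groups. OAS1 was at 0.877 FPKM in Kelly, 2.34 in BE(2)-C, 2.21 in SY5Y and 6.37 in SK-N-AS, and is listed at 0 in CHP134 and SK-N-DZ. OAS3 was at 0.961 FPKM in Kelly, 6.49 in BE(2)-C, 0.00905 in SY5Y and 8.02 in SK-N-AS, and is likewise listed at 0 in CHP134 and SK-N-DZ. The pair thus followed one order in the MYCN-amplified lines and parted in SY5Y. IFI16, a sensor of DNA, reached 3.23 FPKM in CHP134 and 22.9 in SK-N-AS, was at 0.0193 in BE(2)-C and 0.120 in SK-N-DZ, and is listed at 0 in Kelly and SY5Y (log2 fold change -1.96, standard error 1.52, adjusted p = 0.569).

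The 4 transcription factor loci were lower in every MYCN-amplified line than in SY5Y and SK-N-AS, an order found at 16.2% of all named loci. STAT2, which binds IRF9, was at 2.65 FPKM in Kelly, 1.64 in BE(2)-C, 3.01 in SK-N-DZ, 3.61 in CHP134, 10.0 in SY5Y and 16.9 in SK-N-AS. The MYCN-amplified mean was 2.73 ± 0.826 FPKM (SD, n = 4 lines), and the log2 fold change of -2.11 (standard error 0.40) did not pass the threshold in limma (adjusted p = 0.0977). IRF9, in a locus merged with RNF31, was at 13.1 FPKM in Kelly, 11.0 in BE(2)-C, 8.93 in SK-N-DZ, 7.30 in CHP134, 22.3 in SY5Y and 36.5 in SK-N-AS (-1.49, standard error 0.35, adjusted p = 0.143). Reads of IRF9 and of RNF31, a subunit of a ubiquitin ligase, cannot be separated there. IRF7, which drives interferon genes, was at 1.19 FPKM in Kelly, 0.887 in BE(2)-C, 1.06 in SK-N-DZ, 0.133 in CHP134, 2.13 in SY5Y and 2.82 in SK-N-AS (-1.26, standard error 0.53, adjusted p = 0.332). IRF1, an early interferon-induced factor, was at 0.135 to 0.253 FPKM in the MYCN-amplified lines, 0.694 in SY5Y and 2.35 in SK-N-AS, and was not tested.

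The IFIT genes, whose proteins bind foreign RNA, lie together on chromosome 10 (90973325 to 91180758 in hg19). IFIT1 was at 0.687 FPKM in Kelly, 0.450 in BE(2)-C, 0.0612 in SK-N-DZ, 0.00198 in CHP134, 1.01 in SY5Y and 3.74 in SK-N-AS (log2 fold change -1.75, standard error 0.64, adjusted p = 0.268). IFIT2 was at 0.236 FPKM in BE(2)-C, 1.43 in SK-N-AS and at most 0.0415 in the other 4 lines. IFIT3 reached 3.71 FPKM in SK-N-AS and at most 0.0227 in the other 5. IFIT5 departed from its neighbours and was expressed in every line, at 16.4 FPKM in Kelly, 17.4 in BE(2)-C, 17.6 in SK-N-DZ, 9.31 in CHP134, 9.57 in SY5Y and 12.9 in SK-N-AS. The log2 fold change stood at 0.39 (standard error 0.36, adjusted p = 0.633). Its promoter window held the response element.

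Effectors at the membrane were near 0 in the MYCN-amplified lines. IFITM3, which blocks the fusion of viruses with endosomes, was at 0.311 FPKM in SY5Y, 50.9 in SK-N-AS and 0.190 in CHP134, but is listed at 0 in BE(2)-C, Kelly and SK-N-DZ. The locus of IFITM1 and IFITM2 was at 1.98 FPKM in SY5Y, 5.33 in SK-N-AS, 0.167 in SK-N-DZ and 0.663 in CHP134, but is listed at 0 in BE(2)-C and Kelly (log2 fold change -2.52, standard error 0.60, adjusted p = 0.143). The IFITM genes are near-identical in sequence, so that the division of reads among them is uncertain. BST2 (tetherin), which holds budding virus at the cell surface, was at 0.578 FPKM in SY5Y, 12.3 in SK-N-AS, 0.478 in Kelly, 0.231 in BE(2)-C and 0.0937 in SK-N-DZ, and is listed at 0 in CHP134. All 3 loci were higher in SK-N-AS and SY5Y than in any MYCN-amplified line, against 16.2% of all named loci, but SY5Y exceeded the highest of them by little for BST2 and IFITM3.

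Among the enzymes that attach or remove ISG15 or ubiquitin, HERC5 had the smallest p. HERC5, the ligase that attaches ISG15, was at 7.08 FPKM in SY5Y and 8.27 in SK-N-AS, at 1.19 in CHP134, 0.105 in SK-N-DZ and 0.0208 in Kelly, and is listed at 0 in BE(2)-C. Its log2 fold change stood at -3.50 (standard error 0.60, adjusted p = 0.0693). HERC6, its neighbour on chromosome 4, ranged from 0.000570 to 0.0598 FPKM among the MYCN-amplified lines and reached 1.83 in SY5Y and 2.32 in SK-N-AS (-2.27, standard error 0.46, adjusted p = 0.113). At these loci SY5Y came closest to SK-N-AS by ratio among the 36, with SK-N-AS at 1.17 times the FPKM of the next line for HERC5 and 1.26 times for HERC6. TRIM21, a ubiquitin ligase and cytosolic antibody receptor, was at 2.89 FPKM in SY5Y, 11.1 in SK-N-AS, 0.0555 in SK-N-DZ, 0.0890 in Kelly, 0.00595 in CHP134 and 0.591 in BE(2)-C (-3.27, standard error 0.63, adjusted p = 0.0988).

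PARP9 and DTX3L, which form an ADP-ribosylating ubiquitin ligase and share the promoter stretch printed above, had similar levels across lines. PARP9 was at 0.379 FPKM in BE(2)-C, 0.224 in CHP134, 0.892 in SK-N-DZ, 2.12 in SY5Y and 11.2 in SK-N-AS, and is listed at 0 in Kelly (log2 fold change -2.76, standard error 0.71, adjusted p = 0.167). DTX3L was at 0.00881 FPKM in Kelly, 0.872 in BE(2)-C, 0.606 in SK-N-DZ, 0.116 in CHP134, 1.66 in SY5Y and 8.44 in SK-N-AS. Kelly was thus the lowest line for both. PARP14, an ADP-ribosyltransferase in the same chromosome band, reached 17.2 FPKM in SK-N-AS and at most 0.297 in the others, SY5Y included at 0.0107. USP18, which removes ISG15 and restrains the receptor, ranged from 0.0317 to 0.493 FPKM among the MYCN-amplified lines and reached 1.10 in SY5Y and 2.46 in SK-N-AS. UBE2L6, the conjugating enzyme for ISG15, was at 19.6 FPKM in SY5Y, 60.0 in SK-N-AS and 11.5 to 20.7 in Kelly, CHP134 and SK-N-DZ, but at 0.140 in BE(2)-C.

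SP110, a nuclear body protein, had the smallest p of the set. It was at 3.10 FPKM in SY5Y, 10.0 in SK-N-AS and 0.113 in BE(2)-C, and is listed at 0 in Kelly, CHP134 and SK-N-DZ. Its log2 fold change stood at -3.55 (standard error 0.55, adjusted p = 0.0538 in limma, from 0.0241 to 0.272 over the alternative settings in which it was tested, which do not include those without SK-N-AS or SY5Y). SP100, its neighbour and a constituent of the same bodies, reached 20.1 FPKM in SK-N-AS and at most 0.0272 in the other lines, and is listed at 0 in SY5Y. The locus of SP100 also carries a pseudogene, HMGB1P3, and a small RNA annotation. SAMD9 and SAMD9L, which restrict viruses and cell growth, reached 0.736 and 0.389 FPKM in SY5Y, and 6.13 and 4.21 FPKM in SK-N-AS. In the MYCN-amplified lines neither gene exceeded 0.0523 FPKM, and neither was tested.

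CHP134 departed from the other MYCN-amplified lines at a few loci. It was the highest of the 6 lines at 3 of the 36 loci, against 20.9% of all named loci, and stood more than 2 on the log2 scale above the highest other line at 2, against 0.709%. IFI44, an interferon-induced gene, was at 102 FPKM in CHP134 and 21.1 in SK-N-AS, at 0.0342 in Kelly, 0.128 in SK-N-DZ and 0.499 in SY5Y, and is listed at 0 in BE(2)-C. IFI44L, its neighbour on chromosome 1, was at 18.2 FPKM in CHP134, 1.95 in SK-N-AS, 0.0645 in Kelly, 0.0758 in SK-N-DZ and 0.1255 in SY5Y, and is listed at 0 in BE(2)-C. These are the loci at which CHP134 passed that distance. GBP2, a guanylate-binding GTPase in a locus merged with GBP7, was at 40.3 FPKM in CHP134, 1.12 in SY5Y, 22.8 in SK-N-AS and 0.0607 to 0.133 in the other MYCN-amplified lines. GBP1, on the same band, reached 6.01 FPKM in SK-N-AS and at most 0.0136 in the others, CHP134 included. In the comparison of groups, the log2 fold changes of IFI44 (-1.19, standard error 2.32), IFI44L (0.09, standard error 1.53) and GBP2 (-1.86, standard error 1.92) were smaller than their standard errors.

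ISG20, an exonuclease, and RSAD2 (viperin), which makes a chain-terminating nucleotide, were low in every line. ISG20 was at 1.02 FPKM in Kelly, 1.14 in BE(2)-C, 0.807 in SK-N-DZ, 0.758 in CHP134, 0.606 in SY5Y and 2.98 in SK-N-AS (log2 fold change -0.46, standard error 0.55, adjusted p = 0.720). RSAD2 reached 1.02 FPKM in SK-N-AS and 0.0755 to 0.162 in the other 5 lines.

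Of 68 further genes of the pathway, 47 had a locus, on 46 loci, and 36 of these were tested. None was called, and 9 of the 36 were lower and 1 was higher at an unadjusted p below 0.05, against 9.46% and 5.48% of all tested loci. Their median log2 fold change was -0.66, against -0.09 over all tested loci. The 10 interferon ligand genes searched had no locus and were not analysed here. Of 6 receptor subunit genes, IFNLR1 had no locus under its symbol, and the loci of the other 5 were above 1 FPKM in every line. IFNGR2, of the interferon-gamma receptor, was at 8.15 to 11.8 FPKM in the MYCN-amplified lines, 26.2 in SY5Y and 35.3 in SK-N-AS (log2 fold change -1.57, standard error 0.30, adjusted p = 0.0987). The locus that merges IFNAR2, of the type I receptor, with IL10RB was at 3.09 to 6.00 FPKM in the MYCN-amplified lines, 9.62 in SY5Y and 16.2 in SK-N-AS (adjusted p = 0.161), whereas IFNGR1 stood at -0.55 (adjusted p = 0.530). JAK1, the kinase common to these receptors, was at 3.06 to 7.27 FPKM in the MYCN-amplified lines, 21.2 in SY5Y and 17.0 in SK-N-AS (-1.89, standard error 0.40, adjusted p = 0.118).

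TYK2, the other kinase of the type I receptor, stood at -0.48 (adjusted p = 0.601), the repressor IRF2 at -1.86 (adjusted p = 0.201) and IRF3, which drives interferon genes, at -1.22 (adjusted p = 0.342). Among adaptors and kinases, TRIM25 stood at -1.25, MYD88 at -0.70 and the RNA-editing enzyme ADAR at -0.63, with adjusted p from 0.366 to 0.534. Of the negative regulators, SOCS3 was at 2.47 FPKM in SY5Y, 56.8 in SK-N-AS, 1.42 in Kelly and at most 0.0634 in the other 3 lines (-4.15, standard error 1.15, adjusted p = 0.189), while CYLD stood at -0.75 and PIAS1 at 0.29. TLR3, the endosomal sensor of double-stranded RNA, chosen after its values were seen, was at 0.0202 FPKM in SY5Y and 3.65 in SK-N-AS, and is listed at 0 in all 4 MYCN-amplified lines.

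**Figure D5:**
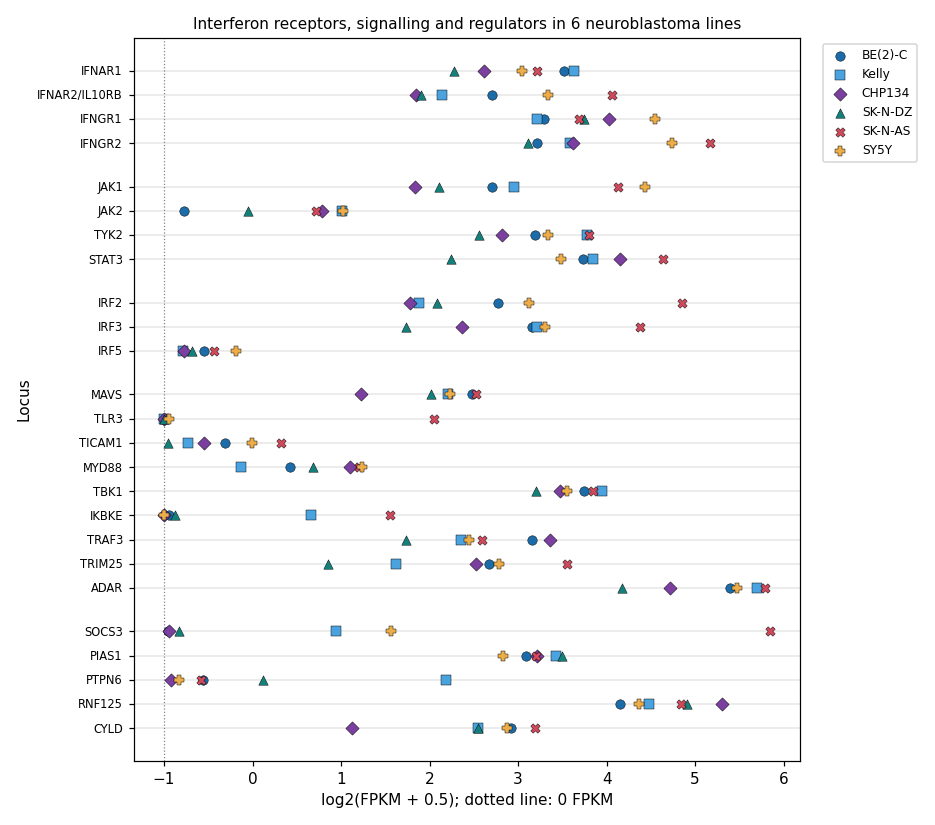
Level of the reported loci of interferon receptors, kinases, STAT and IRF factors, adaptors, sensors and negative regulators as log2(FPKM + 0.5) in each of the 6 cell lines (1 library each, 1 symbol per line), in blocks by role. The receptor loci plotted are above 1 FPKM in every line, while TLR3 and SOCS3 are set apart by SK-N-AS, at 3.65 and 56.8 FPKM.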

How the data were processed

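The data are RNA sequencing libraries of 6 neuroblastoma lines, 1 for each. The line of each library came from the labels and its MYCN status from the study's methods. Per the labels and methods the authors aligned reads to hg19 with STAR and used edgeR on gene counts. The deposited table instead holds 19170 loci with assembler-type identifiers, for which no source used here names the quantifier. The deposited values name no unit and were taken to be FPKM, because they have fractions and their sums over a line differ (777111 to 1305116). Without counts no count test was used, and depth is unknown. Of its lines of text (not cell lines), 1 was emptied before use, and all 6 cell lines were used.

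Loci with a gene name and at least 1 FPKM in at least 2 lines (12870, of which 2664 merge several genes) were fitted by limma 3.58.1 (R 4.3.3) as log2(FPKM + 0.5), with an empirical Bayes trend and no covariate. Adjusted p is Benjamini-Hochberg over all of them. This scale understates the change of genes near 0. The code was tested on simulated data. The members and lists were chosen with earlier results of these data known. Levels over the 6 lines are given for up to 4 genes of each role with the smallest p, for some as a range or maximum of several lines. Pathway genes are the up to 3 of each list with the smallest p. Fuller values for UBE2L6, PARP14, DTX3L, USP18, IFIH1 and TLR3 were chosen after their values were seen. Alternatives varied pseudocount, minimum, scaling, variance model, loci included and lines. Some genes of these lists are counted but not reported here by name.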

Additional observations from a re-analysis of the deposited data

Results flagged for a closer look

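Among the 4 MYCN-amplified lines, 1 line lay far from the other 3 at 7 of the 14 loci of the set that reached 1 FPKM in such a line, by the gap to the nearest line as a share of the whole range in log2(FPKM + 0.5). Shares above Dixon's critical value for 4 samples were marked, which chance gives in about 1 of 20 groups. That rate does not hold for loci that reached 1 FPKM in exactly 1 of the 4 lines, where the minimum itself selects the distant line. Of 1426 such named loci 32.5% were marked, and of the 7 in the set 5 were, all by CHP134 (IFI44, GBP2, IFI44L, IFI16 and HERC5). Of 11944 named loci at 1 FPKM in more of these lines 4.85% were marked, and of the 7 in the set 2 were (IFIT5 and UBE2L6). CHP134 stood above the other 3 for IFI44 (share 0.957, 102 FPKM), GBP2 (0.972, 40.3 FPKM), IFI44L (0.961, 18.2 FPKM), IFI16 (0.893, 3.23 FPKM) and HERC5 (0.844, 1.19 FPKM). It stood below them for IFIT5 (0.895, 9.31 FPKM). BE(2)-C stood below the other 3 for UBE2L6 (0.839, 0.140 FPKM).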

How the results depend on the processing

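Fold changes of the 23 tested loci kept their sign in each setting in which they were tested except for 3 loci. Only 10 of the 23 met the minimum without SK-N-AS and 14 without SY5Y, so that the sign of the rest was not examined there. IFI44L stood at -0.41 with the smaller pseudocount tried, and with each line left out it ranged from -0.89 (without SY5Y) to 0.56, ISG20 from -1.29 to 0.36 (without SK-N-AS) and GBP2 from -3.78 to 0.066 (without SK-N-AS). No locus of the set was called lower in the main fit, where 65 of all 12870 were called in either direction. With a pseudocount of 2, HERC5 was called, against 84 of 12870. Without a minimum, HERC6 and SP110 were, against 77 of 16223. Without the trend, HERC5, HERC6 and SP110 were, against 102 of 12870. Without merged loci, SP110 was, against 61 of 10206. With each MYCN-amplified line left out, 0 to 1 was called (HERC5 without CHP134, against 24 of 12584). The number lower at an unadjusted p below 0.05 was 3 with a minimum of 5 FPKM, which left 9 loci, and 11 to 14 with each MYCN-amplified line left out. No such number is given for the fits that drop SK-N-AS or SY5Y, because 1 line then stands for its whole group. The stability of the number against these lines is thus not shown. The median log2 fold change was -2.64 with the smaller pseudocount, -1.04 with a pseudocount of 2, and -2.61 to -1.11 with each line left out. SK-N-AS stood more than 2 above the highest other line at 5 loci with a pseudocount of 2. SY5Y stood more than 2 above the MYCN-amplified mean at 4 of the 36 loci, against 3.32% of all named loci. The number was 11 with the smaller pseudocount and 0 with a pseudocount of 2. SK-N-AS was highest at 32 loci under each scaling. A pseudocount cannot change which line is highest, because the same value is added to every line. The pseudocount sets the level of lines near 0, and the cause of the other differences was not tested. Depth is unknown, so that values near 0 have no counting error.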

Other observations

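Further interferon-stimulated genes outside the set showed several orders of the lines. Of 23 such genes, 19 had a locus, and 13 of these were highest in SK-N-AS, against 24.3% of all named loci. None of the 14 tested was called. At an unadjusted p below 0.05, 4 were lower and 1 was higher in the MYCN-amplified lines, against 9.46% and 5.48% of all tested loci. TDRD7, a tudor domain protein, did not exceed 0.244 FPKM in any MYCN-amplified line and reached 3.25 FPKM in SY5Y and 6.92 in SK-N-AS (log2 fold change -3.12, standard error 0.50, adjusted p = 0.0575 in limma). IFI6 reached 31.7 FPKM in SY5Y and 42.9 in SK-N-AS, with 4.65 to 8.53 in BE(2)-C, Kelly and CHP134 and 0.0616 in SK-N-DZ (-3.35, standard error 1.05, adjusted p = 0.218). SAMHD1, which degrades deoxynucleotides, had the opposite sign, at 8.69 to 13.3 FPKM in the MYCN-amplified lines against 3.65 in SY5Y and 5.76 in SK-N-AS (1.18, standard error 0.34, adjusted p = 0.197).

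Other values were chosen after they were seen. ISG15, the modifier that HERC5, UBE2L6 and USP18 act on, reached 15.3 FPKM in SK-N-AS, 5.10 in BE(2)-C, 3.07 in SK-N-DZ, 0.458 in SY5Y and 0.0707 in Kelly, and is listed at 0 in CHP134. HERC5 thus reached 7.08 FPKM in SY5Y, a line with ISG15 below 1 FPKM. PLSCR1, a membrane scramblase, was highest in CHP134, at 32.6 FPKM, followed by Kelly at 16.1 and SK-N-DZ at 10.8, with 3.88 in SK-N-AS, 0.0722 in BE(2)-C and 0.0573 in SY5Y. APOL6, IFI35 and NMI reached 7.19, 21.5 and 7.95 FPKM in SK-N-AS but stayed below 1 FPKM in every other line.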
